A study of Homo sapiens with 12 samples.

Results

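RPSAP52, HMGA2, HMGA1 and LIN28B are 4 genes that background knowledge ties to the let-7 microRNAs. They were examined in the input RNA and in the m6A peak lists of A375 cells, a human melanoma cell line. All 4 were found by name among the 29696 genes of the expression table, and they were selected on results of this same comparison, so their values are a description without a test. Cells carried a lentiviral short hairpin RNA against ALKBH5 (shALKBH5) or the control shCtrl, which the paper names Scramble. The labels give the genotypes ALKBH5 knockdown and wild type, and both groups come from the same line. The paper's methods describe puromycin selection of infected cells, and time the harvest for RNA-Seq from infection. Each group held 3 input libraries and 3 libraries of RNA precipitated with an antibody against N6-methyladenosine (m6A IP). Several ALKBH5 hairpins were designed, and the one used for sequencing is not given in the sources used here, so an effect of that hairpin alone cannot be told apart from the knockdown. The labels do not say that the 3 libraries of a group came from separate cultures, so p-values measure the spread between these libraries, which may be technical.

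ALKBH5 removes the m6A mark from RNA. HMGA1 and HMGA2 are AT-hook proteins that bend chromatin DNA, abundant in embryos and many tumours and low in most adult tissues. HMGA2 mRNA is a well-known target of let-7, a family of short RNAs that bind the 3'UTR of mRNAs and lower their level or translation. LIN28B binds let-7 precursors and blocks their maturation, and its own mRNA is a let-7 target, so the pair forms a double-negative loop. RPSAP52 is a transcribed pseudogene of the ribosomal protein gene RPSA that runs antisense to HMGA2 and has been linked to the IGF2BP2, HMGA2 and let-7 network. m6A on an mRNA is read by proteins that include IGF2BP1, IGF2BP2 and IGF2BP3, themselves known let-7 targets.

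The let-7 sequences are shown because the seed, bases 2 to 8 counted from the 5' end, decides which mRNAs a microRNA can pair with. RefSeq (GRCh38.p14) held 12 human genes that give 9 mature let-7 and miR-98 5p sequences. Capitals mark the seed.
let-7a-5p: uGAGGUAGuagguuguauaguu
let-7b-5p: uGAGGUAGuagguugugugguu
let-7c-5p: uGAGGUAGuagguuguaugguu
let-7d-5p: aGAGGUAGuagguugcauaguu
let-7e-5p: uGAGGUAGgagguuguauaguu
let-7f-5p: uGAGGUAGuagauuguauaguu
let-7g-5p: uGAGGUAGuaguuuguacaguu
let-7i-5p: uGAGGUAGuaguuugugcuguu
miR-98-5p: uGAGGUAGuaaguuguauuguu
All 9 carried 1 seed, GAGGUAG, and differed outside it. Of the 2370 mature microRNA names in the RefSeq table, 11 had this seed, the others being miR-4458 and miR-4500. A full seed match in an mRNA reads CUACCUC. Where such matches lie in the transcripts of HMGA2, HMGA1 or LIN28B was not analysed here.

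ALKBH5, the targeted gene, measured 3.39, 3.92 and 3.12 FPKM in the shALKBH5 libraries (replicates 1 to 3 in order, here and throughout) against 19.3, 17.8 and 17.6 FPKM in shCtrl. FPKM is the count of sequenced fragments of a gene relative to its transcript length and to all mapped fragments of that library. The difference on the log2(FPKM + 0.1) scale was -2.36 (SE 0.09, limma adjusted p = 1.28e-06), and the exact two-sided permutation test gave p = 0.1, the smallest that 3 against 3 libraries allow. FPKM summed to 221946 to 223231 in the shALKBH5 libraries and to 212760 to 218966 in the shCtrl libraries, and the read depth is unknown. Over tested genes, log2 values correlated at r = 0.981 to 0.984 within groups and 0.929 to 0.934 between them, a description across genes that are not independent replicates. Of the 10 melanocyte lineage markers chosen, 9 were listed and 5 had a mean of at least 1 FPKM, led by SOX10 at 181 ± 0.754 and 184 ± 6.81 FPKM (SD, n = 3 each) in shALKBH5 and shCtrl cells. SOX10 was not called, and the other 4 were called higher, S100B by 1.32, S100A1 by 1.21, MITF by 0.63 and MIA by 0.18 on the log2 scale. The MITF groups overlapped, and its limma adjusted p was 0.0475. PMEL was not tested, and its groups were apart at means of 0.611 and 0.237 FPKM in shALKBH5 and shCtrl cells. The pigment enzyme genes TYR, DCT and TYRP1 had means of 0.00994, 0.0312 and 0.140 FPKM. Of 8 markers of epithelial, leukocyte and endothelial cells 5 were listed, all epithelial or endothelial, and they summed to 0.549 to 0.784 FPKM in shALKBH5 and 1.17 to 1.40 FPKM in shCtrl libraries, while the 9 melanocyte markers summed to 371 to 377 and 303 to 324 FPKM. KRT14 was the highest of the 5 in every library, at a mean of 0.369 FPKM in shALKBH5 and 0.961 FPKM in shCtrl cells, and EPCAM was at means of 0.0328 and 0.00950 FPKM. The part of these marker differences in the results was not tested.

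Across the 4 genes, RPSAP52 and HMGA1 had lower values in shALKBH5 cells, LIN28B had higher values, and HMGA2 overlapped between groups. For 3 of the 4 genes the ranges of the 2 groups were apart. Over the 12985 tested genes, those with a mean of at least 0.5 FPKM, 67.0% had groups that did not overlap, and 61.0% were called at an adjusted p under 0.05, of which 34.7% of tested genes were higher and 26.2% lower in shALKBH5 cells. The larger side depended on the scaling, since 4509 genes were higher and 3408 lower as deposited but 3756 higher and 3919 lower after each library was rescaled by its median ratio. Nothing is read from the member count beside these shares, because the members were chosen by this contrast.

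**Figure D1:**
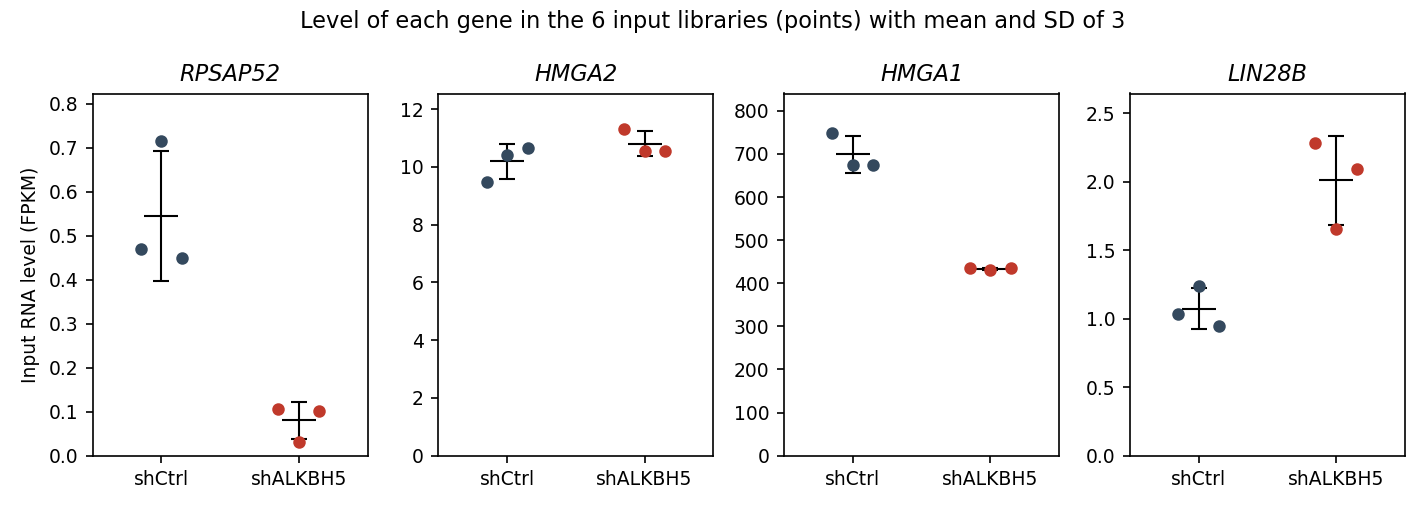
Input RNA level in FPKM (vertical axes from 0, a scale of its own for each gene) in the 3 shCtrl and 3 shALKBH5 libraries, with each library as a point and the mean and SD of 3 as bars. The groups are apart for RPSAP52, HMGA1 and LIN28B and overlap for HMGA2.

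RPSAP52 (ENSG00000241749) lies on chromosome 12 from 65758020 to 65826997, on the minus strand. The shALKBH5 libraries held 0.107, 0.0315 and 0.103 FPKM, and the shCtrl libraries 0.471, 0.715 and 0.449 FPKM. Every shALKBH5 library was below every shCtrl library, although all 6 values were low. The means were 0.0803 ± 0.0422 and 0.545 ± 0.148 FPKM (SD, n = 3 each), a ratio of 6.79 of shCtrl over shALKBH5. Its mean over the 6 libraries, 0.313 FPKM, stood at the 51.6th percentile of all listed genes and under the 0.5 FPKM minimum of the fit over all genes, which the other 3 members passed. On the log2(FPKM + 0.1) scale the difference was -1.85 (SE 0.28, from a fit without the minimum). At these low levels the size depended on the pseudocount, and was -0.51 with a pseudocount of 1 and -2.73 with 0.01. With each library left out in turn it ran from -1.96 to -1.63.

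HMGA2 (ENSG00000149948), the AT-hook gene most often described as a let-7 target, lies on chromosome 12 from 65824460 to 65966291, on the plus strand. Its values were 11.3, 10.5 and 10.6 FPKM with shALKBH5 and 9.49, 10.4 and 10.7 FPKM with shCtrl. The highest shCtrl value exceeded 2 of the 3 shALKBH5 values. The means were 10.8 ± 0.441 and 10.2 ± 0.617 FPKM (SD, n = 3 each). The log2 difference was 0.08 (SE 0.06), close to the median of 0.09 over all tested genes, and fell to 0.01 after each library was rescaled by its median ratio. With each library left out in turn it ran from 0.035 to 0.118.

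RPSAP52 and HMGA2 overlap head to head over 2538 bp, chr12:65824460-65826997, which holds the 5' ends of both. The labels give the same dUTP protocol, which keeps strand, for all libraries but word it for the IP RNA, and whether the authors' counting used the strand is not given in the sources used here. Without it, reads from the shared stretch could not be told apart. HMGA2 stood at 10.5 FPKM and RPSAP52 at 0.313 FPKM as means over the 6 libraries, and only RPSAP52 had groups apart.

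HMGA1 (ENSG00000137309), the second AT-hook gene, lies on chromosome 6 from 34236873 to 34246231, on the plus strand. HMGA1 reached 434, 431 and 435 FPKM with shALKBH5 and 748, 674 and 675 FPKM with shCtrl. The 3 shALKBH5 libraries were close to each other and below all shCtrl libraries. The means were 434 ± 2.03 and 699 ± 42.4 FPKM (SD, n = 3 each), a log2 difference of -0.69 (SE 0.05). HMGA1 ranked at the 99.9th percentile of mean level, above HMGA2 in each of the 6 libraries on the same per-length scale.

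LIN28B (ENSG00000187772), the let-7 precursor binding protein, lies on chromosome 6 from 104936616 to 105083332, on the plus strand. LIN28B values were 2.28, 1.65 and 2.09 FPKM with shALKBH5 and 1.04, 1.24 and 0.944 FPKM with shCtrl. The lowest shALKBH5 value, in replicate 2, was above the highest shCtrl value, also in replicate 2. The means were 2.01 ± 0.323 and 1.07 ± 0.151 FPKM (SD, n = 3 each), a log2 difference of 0.84 (SE 0.15), or 0.53 with a pseudocount of 1. Its paralogue LIN28A was not analysed here. The order of level was the same in all 6 libraries, with HMGA1 highest, then HMGA2, LIN28B and RPSAP52, and no neighbouring pair in that order overlapped.

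The tested genes whose profile over the 6 libraries was most like each member, by the root mean square difference of centred log2 values, were ATXN10 (0.02), RBM15 (0.02) and TM2D1 (0.02) for HMGA2. For HMGA1 they were EPHA2 (0.02), CSK (0.02) and EIF3G (0.02). For LIN28B they were DIS3 (0.02), HFE (0.03) and CILK1 (0.05). DIS3 encodes an exosome ribonuclease and had 3.22, 2.30 and 2.97 FPKM with shALKBH5 and 1.51, 1.79 and 1.32 FPKM with shCtrl, so its lowest shALKBH5 library was also replicate 2. RPSAP52 was left out of this comparison because it was below the minimum.

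The m6A data were 1 peak list for each group, with 46039 peaks in the shALKBH5 list and 44304 in the shCtrl list. Each peak has a fold enrichment of IP over input and a false discovery rate (FDR) from the authors' caller, and none has a value per library, so peak differences have no replicate check. Over all peaks the median fold enrichment was 5.31 in the shALKBH5 list and 5.25 in the shCtrl list, and the median span was 570 and 571 bp. RPSAP52, HMGA2 and LIN28B had peaks in both lists, while HMGA1 had 1 peak in the shCtrl list and 0 in the shALKBH5 list.

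**Figure D2:**
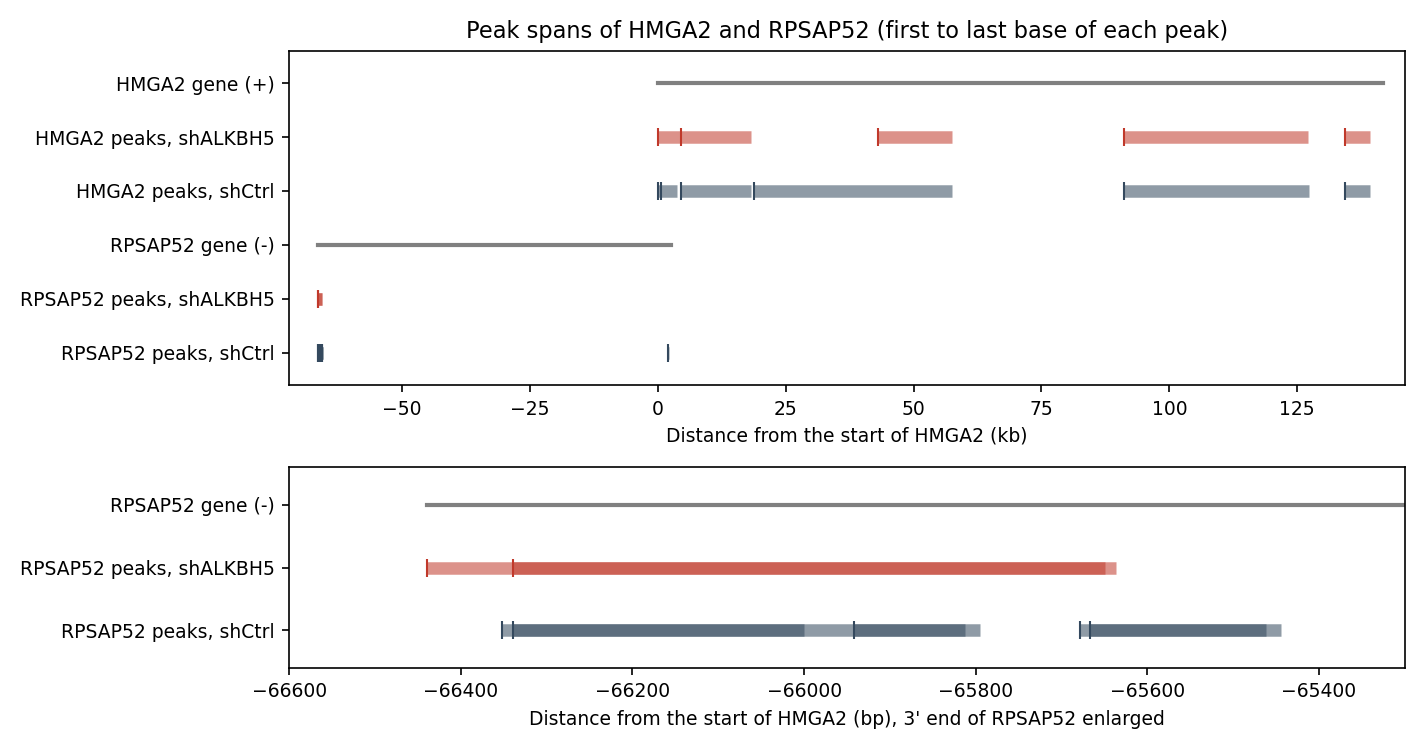
Spans of the HMGA2 and RPSAP52 peaks in the shALKBH5 (red) and shCtrl (grey-blue) lists by distance from the start of HMGA2, in kb above and, for the 3' end of RPSAP52, in bp below, with grey lines for the genes and ticks at each peak's left end. RPSAP52 peaks gather within its last 996 bases in both lists, and 1 further shCtrl peak lies where the genes overlap.

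RPSAP52 had 2 peaks in the shALKBH5 list, which overlap each other, and 6 in the shCtrl list. Merged where they overlap, these form 1 span in the shALKBH5 list and 3 in the shCtrl list. The shALKBH5 peaks, chr12:65758020-65758811 and chr12:65758121-65758823, had fold enrichments of 13.5 and 12.2 and FDRs of 0.00427 and 0.00708. Both lie in the annotated noncoding exon at the 3' end of the transcript. The strongest shCtrl peak, chr12:65758121-65758647, lies in that exon and had a fold enrichment of 3.91 and an FDR of 1.38e-06. The other 4 shCtrl peaks there had fold enrichments of 1.94 to 3.75. A sixth shCtrl peak, chr12:65826501-65826588, sits near the RPSAP52 5' end inside the overlap with HMGA2, with a fold enrichment of 2.26 and an FDR of 0.0427.

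All 5 of the 3' shCtrl peaks shared 1 bp or more, strand included, with a shALKBH5 peak, and 1 of the 6 did so at a reciprocal overlap of 50%. Both RPSAP52 peaks of the shALKBH5 list had a larger fold enrichment than each of the 6 shCtrl peaks, while their FDRs were weaker than those of 4 shCtrl peaks and stronger than those of the other 2. The input level of the gene was lower in shALKBH5 cells. The log2 ratio of the largest fold enrichment, shALKBH5 over shCtrl, was 1.79 for RPSAP52. Of the 15631 genes with peaks in both lists and an expression value, 3.03% had a ratio as high, and their median was -0.04. Among the 850 of these genes with a log2 input difference of -1 or lower, 6.35% had a ratio as high and the median was 0.11, whereas the median was -0.22 in the 796 genes with an input difference of 1 or higher. Among the 171 genes with such a lower input and a mean of 0.1 to 0.5 FPKM, which RPSAP52 resembles, 8.19% had a ratio as high and the median was 0.43. The enrichment of RPSAP52 thus moved together with a low input level, whose part in it was not tested.

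**Figure D3:**
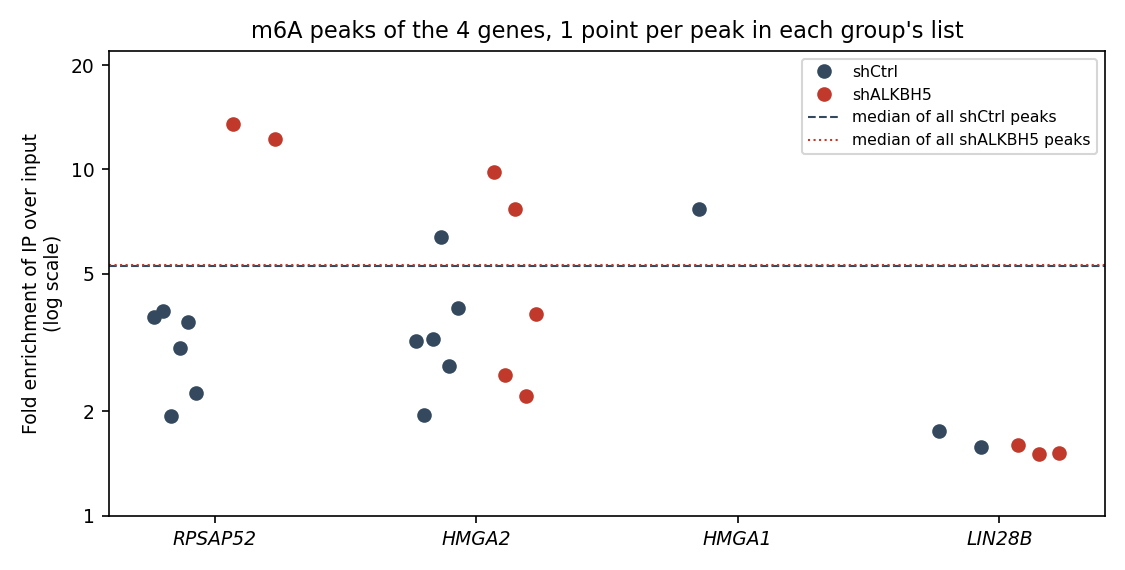
Fold enrichment of IP over input (log axis) of every peak of the 4 genes in the shCtrl (grey-blue) and shALKBH5 (red) lists, 1 point per peak, with the median of each whole list as a line. Both RPSAP52 peaks of the shALKBH5 list, at 12.2 and 13.5, lie above its 6 shCtrl peaks, which end at 3.91, and every LIN28B peak lies between 1.51 and 1.75.

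HMGA2 had 5 peaks in the shALKBH5 list and 6 in the shCtrl list, and every one overlapped a peak of the other list. Its peak of lowest FDR in the shALKBH5 list was in the 3'UTR, chr12:65958815-65963625, with a fold enrichment of 3.82 and an FDR of 1e-113. Its shCtrl counterpart, chr12:65958845-65963625, had a fold enrichment of 3.98 and an FDR of 1e-129. The ends of the 2 spans are identical and the starts differ by 30 bp. They end 2666 bp before the annotated end of HMGA2. The 3'UTR of HMGA2 is the part that let-7 is known to bind, but whether these spans hold let-7 sites was not analysed.

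In the 5'UTR of HMGA2 the shALKBH5 list held 1 span, chr12:65824460-65828727, with a fold enrichment of 9.80. In the shCtrl list 2 spans covered the same stretch, chr12:65824460-65825089 with a fold enrichment of 3.20 and chr12:65825149-65828277 with 1.95. These spans cross the stretch shared with RPSAP52. The coding exon peak had a fold enrichment of 2.54 in the shALKBH5 list and 3.23 in the shCtrl list, and the long 3'UTR span that begins at 65915501 had 2.22 and 2.71. Entries in the 3'UTR of shorter isoforms had 7.66 in the shALKBH5 list and 6.38 in the shCtrl list, but they were assigned to different transcripts, spanned 14415 and 38590 bp, and began 24145 bp apart, so they are no matched site. Spans this long are far over the list medians, and the lists do not say which bases within them carried signal. By its largest peak in each list HMGA2 had a log2 ratio of 0.62, the 81.3rd percentile of the 15631 genes, but these peaks are at different sites, the 5'UTR in the shALKBH5 list and the 3'UTR in the shCtrl list. At matched sites the fold enrichments differed in both directions.

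LIN28B had 3 peaks in the shALKBH5 list and 2 in the shCtrl list, all of low enrichment. Its 5'UTR peaks, chr6:104957147-104958165 and chr6:104957147-104958105, begin at the same base in both lists and had fold enrichments of 1.60 and 1.75. That base lies 20531 bp inside the annotated gene but 40 bp downstream of a second start site that RefSeq (GRCh38.p14) gives for LIN28B at 104957107. A coding exon peak near the 3' end had fold enrichments of 1.52 and 1.58, and the third shALKBH5 entry, annotated as exonic but spanning 68221 bp of the 146717 bp gene, had 1.51. These folds lie between the 3.34th and 7.09th percentiles of their lists, and no LIN28B peak kept a fold of at least 2 with an FDR of at most 0.01. LIN28B thus had a higher input level in shALKBH5 cells beside largest enrichments that changed little in size, 1.60 against 1.75.

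HMGA1 had its 1 peak in an intron, chr6:34240673-34240736 in the shCtrl list, with a fold enrichment of 7.66 and an FDR of 0.236. In that list 13.5% of peaks had an FDR of at least 0.05, and 4.73% were intronic. Of the 36 genes with a mean level at or above that of HMGA1, 14 had 0 peaks in the shALKBH5 list and 12 had 0 in the shCtrl list, which is 38.9% and 33.3%. Of all 12985 tested genes 1820 and 1879 had 0 peaks, a smaller share, given as a description without a test.

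The authors' table that compares the peaks of the groups held 6513 peaks. It listed 1 HMGA2 entry, the 3'UTR span chr12:65958815-65963625. It also listed 2 overlapping RPSAP52 entries at the 3' end, chr12:65758121-65758589 and chr12:65758108-65758577, and 0 entries for HMGA1 or LIN28B. For comparison, 32.7% of all tested genes had an entry.

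RPSA, the parent gene of RPSAP52 and a component of the small ribosomal subunit, had 765, 783 and 776 FPKM with shALKBH5 and 708, 617 and 687 FPKM with shCtrl. All shALKBH5 values were above the shCtrl values. Its log2 difference was 0.21 (SE 0.05, limma adjusted p = 0.0112), a call that was lost after median ratio rescaling (adjusted p = 0.147). Reads of RPSA and of its processed pseudogenes can be split between near-identical copies, so these values are uncertain. Of 30 other RPSA pseudogenes listed, 9 reached the minimum, of which 5 were called higher, 0 lower and 4 not called, beside 34.7% higher and 61.0% called in all over the tested genes. Their log2 differences ran from -0.15 to 2.73. RPSAP47 passed the minimum only through shALKBH5, with means of 3.55 and 0.273 FPKM in shALKBH5 and shCtrl cells. Among the 21 under the minimum, RPSAP5, named after its values were seen, had a mean of 0.356 FPKM, near the 0.313 FPKM of RPSAP52. It measured 0.0690, 0.0451 and 0.140 FPKM in shALKBH5 and 0.437, 1.18 and 0.266 FPKM in shCtrl libraries, so that its groups did not overlap and, as for RPSAP52, shALKBH5 was the lower. RPSAP45, also named after its values were seen, had groups apart with shALKBH5 the higher. RPSAP45 was at 0.177, 0.127 and 0.180 FPKM in shALKBH5 and 0.0560, 0.0727 and 0.0960 FPKM in shCtrl libraries. For the rest of these 21 the groups overlapped.

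The called RPSA pseudogenes were RPSAP47, RPSAP54, RPSAP12, RPSAP19 and RPSAP58, and most varied widely within a group. RPSAP47 was at 4.47, 5.73 and 0.458 FPKM in shALKBH5 libraries, and RPSAP54 at 1.08, 6.87 and 1.36 FPKM in shCtrl libraries. RPSAP58, at 89.8 ± 1.67 and 80.8 ± 3.05 FPKM (SD, n = 3 each), had a difference of 0.15, which was no longer called after rescaling (limma adjusted p = 0.276). RPSAP19 was not called after rescaling either (limma adjusted p = 0.0716), and the calls of RPSAP19, RPSAP47 and RPSAP58 were each lost with at least 2 of the single libraries left out. RPSAP8, RPSAP9, RPSAP15 and RPSAP18 were not called and differed by 0.04, 0.29, 0.22 and -0.15. RPSAP8 was called without shALKBH5 replicate 2, at 0.21, and changed sign without either of the other shALKBH5 replicates and after rescaling. RPSAP15 differed by 0.016 without shCtrl replicate 2, and RPSAP9 ran from 0.16 to 0.39 and was called without shALKBH5 replicate 3. Of 6 HMGA1 pseudogenes listed, 3 reached the minimum. HMGA1P8 and HMGA1P3 were called lower with differences of -0.81 (SE 0.15) and -0.64 (SE 0.10), the same sign as HMGA1, and HMGA1P2 at -0.23 (SE 0.22) was not called, ranging from -0.42 without shCtrl replicate 2 to -0.02 without shCtrl replicate 3. Reads shared with HMGA1 could enter these rows, and neither called pseudogene had a peak in either list.

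Among the neighbours of HMGA2 within 1 Mb on either side, 21 genes were listed and 8 were tested. MSRB3, a methionine sulfoxide reductase gene upstream of HMGA2, was called lower, from 2.58 ± 0.291 FPKM in shCtrl to 1.42 ± 0.077 FPKM in shALKBH5 cells (SD, n = 3 each), a difference of -0.82 (SE 0.10). LINC02454, LLPH and HELB were called higher with differences of 0.68, 0.40 and 0.49, but HELB lost its call in 5 of the 6 fits with a library left out and with the replicate block (limma adjusted p = 0.0608), LLPH in 3 of the 6 and LINC02454 in 1. LEMD3, LLPH-DT, TMBIM4 and RBMS1P1 were not called, with differences of 0.23, 0.80, -0.04 and -0.36. LLPH-DT ran from 0.49 to 1.15 with each library left out and was called with the replicate block (limma adjusted p = 0.0162) and without shALKBH5 replicate 1. LEMD3 was called without shCtrl replicate 2 and RBMS1P1 without shALKBH5 replicate 1. The 4 calls among 8 tested genes stand beside the 61.0% called over all tested genes.

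The genes that make and regulate let-7 were read from a list of processing and turnover factors. Of its 18 tested genes 11 were called, 3 higher and 8 lower in shALKBH5 cells, a share of 61.1% against the 61.0% of all tested genes. The median log2 difference was -0.16, against 0.09 over all tested genes. DROSHA, the nuclear nuclease that cuts primary microRNAs, was at 3.25, 2.80 and 2.96 FPKM in shALKBH5 and 9.67, 10.9 and 10.3 FPKM in shCtrl libraries, a difference of -1.74 (SE 0.08, limma adjusted p = 2.21e-06). AGO4 and AGO1, Argonaute proteins that hold the mature microRNA, fell by 1.40 and 1.14 on the log2 scale. AGO4 passed the minimum only through shCtrl, with means of 0.490 and 1.47 FPKM in shALKBH5 and shCtrl cells. With a pseudocount of 1 the AGO4 difference was -0.72. AGO2, at 7.73 FPKM the Argonaute gene of highest level here, and AGO3 were not called, with differences of 0.05 and -0.17.

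The factors that act beside LIN28 on let-7 precursors were mixed. TUT7, a terminal uridylyl transferase, rose from 0.803 ± 0.0828 to 1.30 ± 0.135 FPKM (SD, n = 3 each), a difference of 0.63 (SE 0.13, limma adjusted p = 0.00464). Its paralogue TUT4 was not called, with 0.799 ± 0.161 FPKM in shALKBH5 and 0.891 ± 0.187 FPKM in shCtrl cells (SD, n = 3 each). DICER1, which cuts the precursor, was at 0.911 ± 0.0322 and 0.956 ± 0.145 FPKM, and DIS3L2, which degrades uridylated precursors, at 2.39 ± 0.107 and 2.21 ± 0.0815 FPKM (SD, n = 3 each). Neither was called. TRIM71 had a mean of 0.00144 FPKM and was below the minimum.

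Transcripts that host let-7 hairpins were examined because the libraries were poly(A)-selected and fragmented and do not measure mature microRNAs. HUWE1 has a span on chromosome X that holds the let-7f-2 and miR-98 hairpins. Its level fell from 50.1 ± 1.58 FPKM in shCtrl to 35.5 ± 0.566 FPKM in shALKBH5 cells (SD, n = 3 each), a difference of -0.50 (SE 0.04, limma adjusted p = 3.46e-05). HUWE1 is itself a coding gene, for a ubiquitin ligase. MIRLET7BHG, on chromosome 22 around the let-7a-3 and let-7b hairpins, had a difference of 0.43 (SE 0.17) and MIR100HG, on chromosome 11 around let-7a-2, one of -0.33 (SE 0.14). MIRLET7A1HG, on chromosome 9, had -0.06 (SE 0.18). These 3 were not called, with limma adjusted p of 0.0621, 0.0703 and 0.804, while the first 2 passed in a fit without a variance trend at 0.0220 and 0.0383. MIR100HG also passed after median ratio rescaling (limma adjusted p = 0.0276). MIR99AHG, the host of let-7c, was at a mean of 0.0120 FPKM and below the minimum. The 9 hairpin rows of the table had means of 3.33e-06 to 0.591 FPKM and are not read as microRNA levels.

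Known let-7 targets other than the members were called in both directions. Of 29 tested, 22 were called, 7 higher and 15 lower, or 75.9% against the 61.0% of all tested genes. Their median difference was -0.25. The lowest were CDK6, RRM2, AURKB, EZH2 and TGFBR1, at -1.84, -1.70, -1.67, -1.41 and -1.04. CDK6 drives entry into S phase, RRM2 is a subunit of ribonucleotide reductase, AURKB is a mitotic kinase, EZH2 a histone methyltransferase and TGFBR1 a receptor of TGF-beta. ARID3B, a DNA-binding protein, rose from 1.39 ± 0.101 to 5.05 ± 0.0403 FPKM (SD, n = 3 each), a difference of 1.79 (SE 0.08, limma adjusted p = 2.00e-06). NRAS, which encodes a GTPase of growth factor signalling, fell by 0.58 on the log2 scale and had 0 peaks in both lists.

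The IGF2BP genes, which are both let-7 targets and m6A readers, moved apart. IGF2BP1 was at 24.3, 24.6 and 23.9 FPKM in shALKBH5 and 20.1, 20.8 and 20.2 FPKM in shCtrl libraries, and rose by 0.25 on the log2 scale (SE 0.04, limma adjusted p = 0.000909). IGF2BP3 was at 4.17, 3.34 and 3.59 FPKM against 6.68, 8.78 and 6.48 FPKM and fell by 0.96 (SE 0.13, limma adjusted p = 0.00057). IGF2BP2, the family member also described as a target of HMGA2, was at 29.6, 30.0 and 27.1 FPKM against 26.7, 33.1 and 29.9 FPKM, overlapped between groups and was not called. IGF2BP1 and IGF2BP3 had groups apart, as 67.0% of all tested genes did. After median ratio rescaling the difference of IGF2BP1 was 0.17 (limma adjusted p = 0.011) and that of IGF2BP3 was -1.03. All 3 had peaks in both lists, from 2 to 7 in number.

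The other high mobility group genes were read beside HMGA1 and HMGA2, since they share the chromatin role but not the AT-hook. Of 9 tested genes 8 were called, 1 higher and 7 lower, a share of 88.9% against 61.0%, with a median difference of -0.93. HMGB2, which bends DNA and is abundant in dividing cells, was at 6.42, 6.62 and 6.79 FPKM in shALKBH5 and 32.2, 37.2 and 35.9 FPKM in shCtrl libraries, a difference of -2.39 (SE 0.06, limma adjusted p = 3.52e-07). The difference of ALKBH5 itself was -2.36. HMGB3, HMGB1 and HMGN2 fell by 2.06, 1.30 and 1.22 on the log2 scale. HMGN4 rose by 0.59. HMGN3 was not called. Beside them, the AT-hook gene HMGA1 differed by -0.69 and HMGA2 by 0.08.

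Genes described as downstream of HMGA proteins formed the last list. Of 15 listed 9 were tested and 6 called, 1 higher and 5 lower, a share of 66.7% against 61.0%, with a median difference of -0.96. CCNB2 and CCNA2, the cyclins B2 and A2, fell by 1.83 and 1.80 on the log2 scale, and E2F1, a transcription factor of the cell cycle, fell by 1.61. IGF2BP2 stands in this list and among the let-7 targets, and DICER1 in both let-7 lists. VIM, the intermediate filament vimentin, fell from 703 ± 6.62 to 256 ± 5.79 FPKM (SD, n = 3 each), a difference of -1.46 (SE 0.03, limma adjusted p = 2.37e-07). SNAI1, a transcription factor of the epithelial to mesenchymal transition, rose by 0.32, while TWIST1 fell by 0.96. The epithelial cadherin CDH1 had a mean of 0.000785 FPKM.

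A peak was present in the shALKBH5 list for 17 of 18 let-7 processing genes, 26 of 29 let-7 targets, 9 of 9 HMG family genes and 7 of 9 HMGA linked genes, against 86.0% of all tested genes. In the shCtrl list these were 18, 26, 9 and 6, against 85.5%. The authors' comparison table held an entry for 11, 13, 6 and 4 of them, or 61.1%, 44.8%, 66.7% and 44.4%, against 32.7% of all tested genes, as a description without a test. DICER1 had 5 peaks in each list with largest fold enrichments of 10.3 and 20.4 in shALKBH5 and shCtrl cells. TUT7, which rose, had 5 and 3 peaks with largest fold enrichments of 13.7 and 8.94, whereas IGF2BP1, which also rose, had 3 and 2 peaks with 8.08 and 47.2. For TUT4 and DIS3L2, which also tag or degrade pre-let-7, the largest values were 10.1 and 8.57 in shALKBH5 against 12.3 and 11.5 in shCtrl cells. Whether the largest peaks lie at the same site in both lists was not compared. No value per library stands behind these counts.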

How the data were processed

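A375 cells with shALKBH5 or shCtrl were analysed, with 3 input and 3 m6A IP libraries per group assigned from the labels. The authors deposited FPKM per input library for 29696 genes. The paper's RNA-Seq methods name the R package edgeR for transcript levels and differential expression. The aligner, read counter, strand setting and annotation release are not given in the sources used here. The submitters' processing notes name the build mm10, a mouse build, but of 21695 gene symbols matched to RefSeq GRCh38.p14, 99.9% overlapped the RefSeq gene, and coordinates are given as deposited with RefSeq as the human reference. For m6A, the authors deposited a list of peaks for shALKBH5 and another for shCtrl, where each peak has a fold enrichment, the ratio of IP over input. The authors' log10 p and log10 FDR of each peak were treated as a score because some are infinite or lie far below the usual range of log values. Peak starts, deposited counting from 0, were changed to count from 1. The peak caller and the pooling of libraries are not given. The authors' own comparisons, a fold change with p and q values per gene and a log2 fold change with p and FDR per differential peak, were not used, and only positions and gene names were read from the peak comparison table.

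Expression was tested with limma 3.58.1 in R 4.3.3 (lmFit, eBayes with trend, two-sided, Benjamini-Hochberg over all tested genes) on log2(FPKM + 0.1) for the 12985 genes whose mean over 6 input libraries reached 0.5 FPKM, and the test was tested on simulated data. Differences on this scale understate changes of low genes. Low FPKM values showed no steps of whole reads, so no counts could be recovered and the depth is unknown. Identical values between any pair of libraries stayed at or under 0.123%. The members and the gene lists were chosen with earlier results of these data known. Named genes were the members, ALKBH5, RPSA, 11 let-7 linked or HMG genes whatever their values (LIN28A among them was not analysed here and another gene is not reported here), called list genes with an absolute difference of at least 1 (at most 6 per direction), hosts, pseudogenes of at least 0.5 FPKM, neighbours within 1 Mb and the 3 most alike genes. AGO2, AGO3, HMGN3, HMGN4, SNAI1, TWIST1, TRIM71 and CDH1 were chosen after their values were seen, and so was the comparison of enrichment with input level. Alternatives were pseudocounts of 1 and 0.01, no minimum, a minimum of 1 FPKM, median ratio rescaling, a replicate block, a fit without the variance trend, each library left out, stricter peaks (fold of at least 2, FDR of at most 0.01) and a reciprocal overlap of 50%. Tables were handled with pandas 2.3.3 in Python 3.11.15, the permutation test with scipy 1.17.1 and figures with matplotlib 3.10.9.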

Additional observations from a re-analysis of the deposited data

How the results depend on the processing

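With 3 libraries per group, unknown depth and peaks without values per library, small differences and peak gains or losses could not be resolved. The count of called genes ran from 6871 to 8231 over all alternatives, and the counts for the 4 lists stayed within 1.5 times their value. The pseudocount moved the RPSAP52 difference to -0.51 (pseudocount 1) and -2.73 (0.01), and that of LIN28B to 0.53 (1). Median ratio rescaling moved HMGA2 to 0.0063 and HMGA1 to -0.77. No member changed sign. With a reciprocal overlap of 50%, 1 RPSAP52 peak of the shCtrl list overlapped the other list, and with stricter peaks HMGA1 kept 0 in the shCtrl list and LIN28B 0 in both. Changes of sign were found only in genes that were not called. With each library left out in turn, DICER1 ran from -0.118 to 0.0569, IGF2BP2 from -0.125 to 0.0307, TUT4 from -0.282 to 0.0105, TMBIM4 from -0.128 to 0.0235 and MIRLET7A1HG from -0.140 to 0.0396. RPSAP18 ran from -0.370 to 0.0828 and RPSAP8 from -0.0410 to 0.205, and RPSAP8 was at -0.0341 after rescaling. The cause was not tested. Over the named genes, 30 fits lost a call and 9 gained one, and the other fits did neither.

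The fit with the replicate block called 7271 genes, and 11, 21, 8 and 6 genes of the 4 lists. Deviations of shALKBH5 and shCtrl libraries with the same number correlated at 0.02, -0.05 and 0.06. Those with unlike numbers correlated at -0.06 to 0.04. This shows no sign of pairing, but the labels do not say whether libraries were prepared in pairs. In the fit with the replicate block the ALKBH5 difference was -2.36 (limma adjusted p = 2.80e-05).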
